A study of Mus musculus with 2 samples.

Results

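The extracellular matrix genes of mouse inter-limb somites were described here as 42 genes of 27998 in the count tables, chosen by gene symbol from a list of collagens, laminins, basement membrane linkers, matrix glycoproteins, proteoglycans and elastic fibre genes. The cells came from inter-limb somites of wild type C57BL/6 embryos at E9.5 and E11.5, stages examined to follow muscle progenitors and their neighbours. Somites of 3 embryos per stage were pooled into 1 single-cell library per stage, so that no difference could be tested across replicate libraries and stage and library cannot be told apart. After filtering, 9851 cells of the E9.5 library and 9595 of the E11.5 library were kept, with medians of 12462 and 12479 transcripts per cell, each counted once through its unique molecular identifier (UMI). The 42 genes held 0.117% of all UMIs in the first library and 0.326% in the second.

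Fibrillar collagens assemble into the fibrils that carry load in skin, bone, tendon and cartilage, and fibril-associated collagens decorate their surface. Basement membranes are thin sheets built from laminin trimers and collagen IV, joined by nidogens and heparan sulphate proteoglycans, and they lie under epithelia and endothelia and around muscle fibres. Each laminin holds an alpha, a beta and a gamma chain, and the alpha chain sets most of its receptor binding.

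Cells were sorted into groups by transcripts of other genes, and no matrix gene of the 42 was used for that. Muscle cells were followed from Pax3/Pax7 progenitors through Myf5 cells, Myod1 myoblasts and early myocytes (Myog with few sarcomere transcripts) to sarcomere myocytes. Beside them stood Pax1/Pax9 sclerotome, Sox9-high mesenchyme with at least 3 further cartilage genes, Scx mesenchyme, En1 mesenchyme, endothelial cells, neural progenitors and neurons. Cells that fit the Sox9-high rule were not counted as sclerotome. These groups took 43.3% of the E9.5 cells and 50.4% of the E11.5 cells. A group under 50 cells was not used, which left no E9.5 value for Myod1 myoblasts, both myocyte groups, Scx mesenchyme and En1 mesenchyme. Levels are UMIs of a gene per 1000000 UMIs of the group (UPM), with exact 95% Poisson intervals that cover counting error only. A gene was called higher or lower past a 2-fold ratio if it had at least 50 UMIs in both groups together.

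Other markers set limits on these names. In the Scx mesenchyme the later tendon genes Tnmd and Mkx were near 0, at 1.50 and 3.82 UPM, so the cells are named by Scx alone. In the Sox9-high mesenchyme of E11.5 the cartilage gene Comp was at 0 and Fgfr3 at 16.8 UPM, and in the sclerotome Nkx3-2 was at 0.619 UPM beside Foxc2 at 57.8 and Uncx at 24.7 UPM. The En1 mesenchyme lost 62.0% of its cells under stricter bounds. Of the dermal genes outside its rule, Axin2 was higher than in the sclerotome (59.5 against 34.3 UPM) and Dact1 lower (30.7 against 54.2). Msx1 was low in both (9.22 and 6.49). These cells are therefore named by En1, although their rule also asked for UMIs of Pdgfra and of a Twist or Prrx gene. By that rule all 432 cells held a Pdgfra UMI, against 67.9% of the E11.5 sclerotome cells. The E9.5 Sox9-high group held 57 cells, of which 53 were lost under stricter bounds. Of the 157 progenitors at E11.5, 108 (68.8%) had a UMI of the mesenchymal genes Pdgfra, Prrx1 or Twist2, against 44.4% of the Myf5 cells (54.2% and 19.9% after thinning cells to 5000 UMIs), so results that rest on the E11.5 progenitors are also given with Myf5 cells in their place, an alternative added after seeing the data. Free RNA was gauged in red blood cells, whose UPM is scaled to non-globin UMIs. At E11.5 they held 74.0 UPM of Col3a1, 63.8 of Col1a2, 61.7 of Col2a1, 76.1 of Fn1 and 103 of Sparc, whereas the neurons of the same library held 6.73, 6.73, 12.7, 12.7 and 41.2 UPM. Neurons, unlike red cells, were limited by rule in their Twist1 and Pdgfra UMIs. E11.5 levels below those of the red cells are not read here as transcription by the cells that hold them. Whether such cells transcribe the genes was not tested. Levels of E9.5 are not set against red cells here, so free RNA on the E9.5 side of a stage ratio is not gauged.

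Promoters are shown for members that share a start region or a trimer. Col4a1 and Col4a2 encode the chains of the common collagen IV trimer and lie head to head on chromosome 8, with starts 21 bases apart on opposite strands. Col9a1 and Col9a2 encode partners in the collagen IX trimer and lie on chromosomes 1 and 4. Windows are 300 bases from the RefSeq table for GRCm38.p6, 250 before and 50 after the start, written 5′ to 3′ on the strand of the gene. Capitals mark, on either strand, a CCAAT box, the GC box word GGGCGG, the TATA box word TATAAA, or the SOX-type words ACAAAG and then AACAAT.
Col4a1, minus strand, chr8:11312777-11313076: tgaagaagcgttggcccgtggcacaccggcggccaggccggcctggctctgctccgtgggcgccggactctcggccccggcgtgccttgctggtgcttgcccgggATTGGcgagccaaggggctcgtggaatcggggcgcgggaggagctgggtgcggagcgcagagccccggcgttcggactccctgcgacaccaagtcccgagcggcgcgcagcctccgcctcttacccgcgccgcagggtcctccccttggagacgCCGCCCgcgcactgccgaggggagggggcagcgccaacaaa
Col4a2, plus strand, chr8:11312555-11312854: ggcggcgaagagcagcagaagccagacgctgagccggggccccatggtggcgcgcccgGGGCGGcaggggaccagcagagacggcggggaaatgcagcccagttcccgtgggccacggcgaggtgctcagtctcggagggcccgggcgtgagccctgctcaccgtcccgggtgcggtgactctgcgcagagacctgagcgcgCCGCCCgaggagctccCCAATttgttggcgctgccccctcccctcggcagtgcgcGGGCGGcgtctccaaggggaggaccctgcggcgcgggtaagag
Col9a1, first start, plus strand, chr1:24177360-24177659: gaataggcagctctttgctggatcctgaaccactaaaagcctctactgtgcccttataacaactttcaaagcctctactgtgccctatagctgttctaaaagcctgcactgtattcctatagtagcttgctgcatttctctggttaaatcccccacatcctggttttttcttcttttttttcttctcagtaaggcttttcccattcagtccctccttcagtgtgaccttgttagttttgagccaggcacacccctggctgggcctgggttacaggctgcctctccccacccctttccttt
Col9a1, second start, plus strand, chr1:24194953-24195252: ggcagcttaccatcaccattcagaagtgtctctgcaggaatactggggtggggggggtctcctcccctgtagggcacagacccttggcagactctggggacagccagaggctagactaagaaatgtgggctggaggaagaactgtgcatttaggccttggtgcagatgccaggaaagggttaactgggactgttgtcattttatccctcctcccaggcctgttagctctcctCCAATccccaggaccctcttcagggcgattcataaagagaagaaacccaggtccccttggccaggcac
Col9a2, plus strand, chr4:121039316-121039615: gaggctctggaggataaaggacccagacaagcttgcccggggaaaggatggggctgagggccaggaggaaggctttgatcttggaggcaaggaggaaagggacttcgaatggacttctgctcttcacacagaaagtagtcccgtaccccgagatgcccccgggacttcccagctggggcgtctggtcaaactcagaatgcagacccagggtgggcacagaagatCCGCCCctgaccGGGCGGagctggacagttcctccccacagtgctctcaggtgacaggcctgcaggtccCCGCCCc

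The windows of Col4a1 and Col4a2 share 78 bases, and each holds a CCAAT and a GGGCGG match. The GGGCGG match of Col4a1 lies in the shared bases and is the same site as 1 of the 3 of Col4a2. Their CCAAT matches are different sites, and neither lies wholly in the shared bases. GC content was 74.0% and 73.7% in this pair, 47.3% and 55.7% at the 2 starts of Col9a1 and 61.7% at Col9a2. Over all 32851 windows of the table, 37.4% held CCAAT, 35.7% held GGGCGG, 13.6% held TATAAA, 18.7% held ACAAAG and 10.7% held AACAAT, so these matches describe the letters only. Of the 42 genes, 26 matched the table, with 32 windows.

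**Figure D1:**
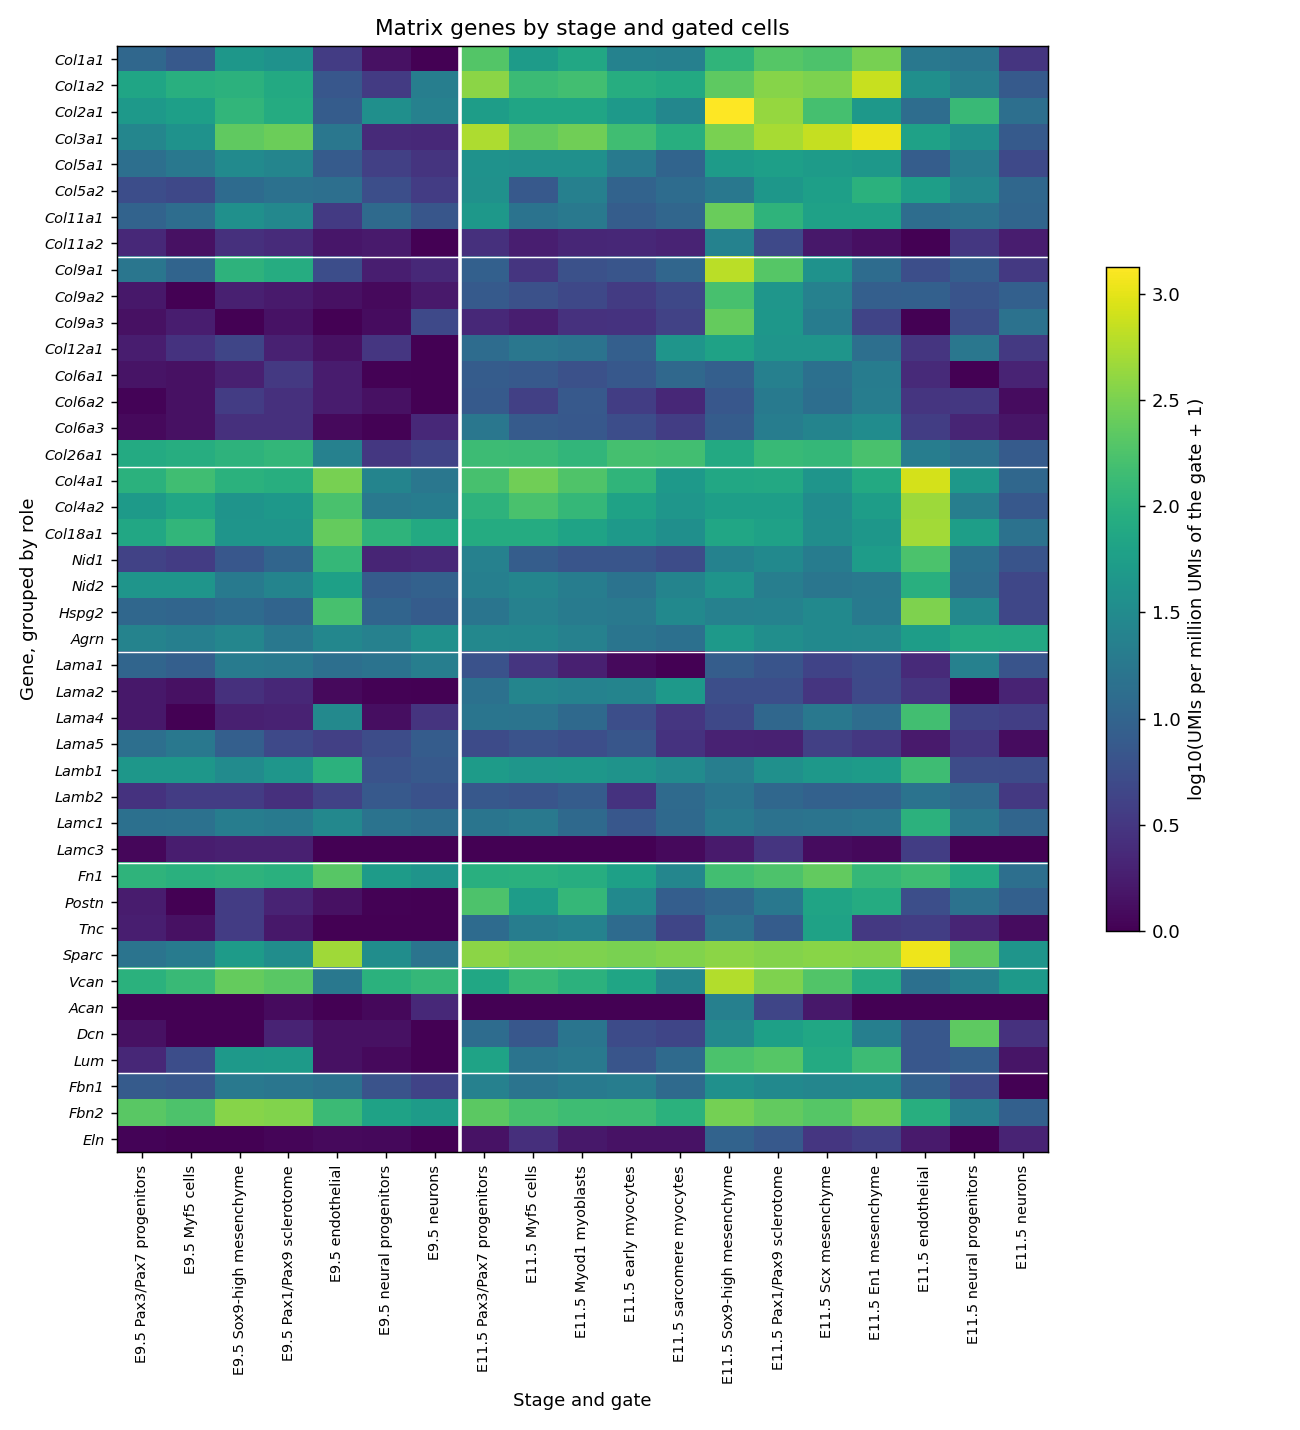
Levels of the 42 matrix genes (vertical axis, ordered by role, with white lines between roles) in each group of cells at E9.5 and E11.5 (horizontal axis, stages split by a white line), as log10(UPM + 1). Bright blocks at E11.5 include the cartilage-type collagens in Sox9-high mesenchyme, Col1a2 and Col3a1 in En1 mesenchyme and the basement membrane genes in endothelium. Not all are particular to 1 group: Col3a1 was also at 707 UPM in Scx mesenchyme, and Sparc was high in every E11.5 group but neurons.

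To examine how the matrix genes change with stage, each group was compared between E11.5 and E9.5. In the sclerotome, 40 of the 42 genes passed the floor of 50 UMIs, 26 were higher at E11.5 and 2 lower, where 16% and 3.9% of all 11193 genes were (19.9% in either direction). The median log2 ratio was 1.68 over these 40 genes and 0.20 over all genes. Genes that only one stage carries over the floor had to differ, so the share of calls is a description. Acan and Lamc3 stayed under the floor.

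Fibrillar collagens were higher in the E11.5 sclerotome in 7 of 8 cases. Col1a2, a chain of the type I collagen of skin, bone and tendon, stood at 78.7 UPM at E9.5 against 355 at E11.5, with a log2 ratio of 2.17 (95% interval 2.09 to 2.26). Col2a1, the main cartilage collagen, stood at 83.3 and 425 UPM, with a log2 ratio of 2.35 (2.27 to 2.44). Col3a1, the collagen of loose connective tissue, was already at 261 UPM at E9.5, and its log2 ratio of 0.99 (0.93 to 1.04) lay just under the threshold, as that of Agrn at 1.02 lay just over it.

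The genes grouped here as fibril-associated and beaded-filament collagens were higher in 7 of 8 cases, with a median log2 ratio of 3.47. Col12a1, which binds type I fibrils, went from 0.924 UPM at E9.5 to 41.1 at E11.5 in the sclerotome. Col6a1, Col6a2 and Col6a3, whose chains form beaded filaments around cells, were at 2.31, 1.73 and 1.73 UPM in the E9.5 cells and at 22.1, 18.2 and 20.3 in the E11.5 cells. All 3 collagen VI chains thus moved by a similar factor, with log2 ratios of 3.26, 3.39 and 3.55 and overlapping intervals. Col26a1, placed in this group here although it is of neither type, was the gene within 2-fold, at 116 and 126 UPM.

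Collagen IX was detected through 1 chain before the others. At E9.5 the sclerotome held 84.0 UPM of Col9a1 (79.8 to 88.5), but 0.693 of Col9a2 and 0.404 of Col9a3. Col9a1 UMIs were found in 58.0% of these 1288 cells and Col9a2 UMIs in 0.932%, and in E9.5 endothelial cells, with a median depth of 14156 UMIs against 12198, the shares were 4.85% and 0.606%. After thinning to 5000 UMIs the shares were 33.4% and 0.551% in the sclerotome and 1.62% and 0% in endothelial cells. At E11.5 the sclerotome held 200 UPM of Col9a1, 42.9 of Col9a2 and 44.1 of Col9a3. Col9a1 made up 98.7% of the collagen IX UMIs in the E9.5 sclerotome and 69.6% in the E11.5 sclerotome. The log2 stage ratios were 1.25 for Col9a1, 5.95 for Col9a2 and 6.77 for Col9a3, with intervals apart for the first against the other two. UMIs do not tell the starts of Col9a1 shown above from each other.

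Laminin genes moved in both directions in the sclerotome, with 3 of 7 higher, 2 lower and a median log2 ratio of -0.26. Of 7 basement membrane collagens and linkers 3 were higher and none lower, with a median log2 ratio of 0.53. The alpha chain genes Lama1 and Lama5, known from early embryonic basement membranes, were the only members lower at E11.5 by more than 2-fold. Lama1 was at 17.4 and 5.41 UPM (log2 ratio -1.69, -2.08 to -1.31) and Lama5 at 3.87 and 0.928 (-2.06, -3.08 to -1.16). Lama4 was among the 3 higher laminin genes, at 0.982 and 9.97 UPM. Col4a1 differed little, at 90.3 and 75.6 UPM, as did Lamb1 at 42.6 and 35.6 and Lamc1 at 18.2 and 14.2.

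Among glycoproteins, proteoglycans and elastic fibre genes, Sparc, a collagen-binding protein, stood at 33.4 and 345 UPM in the sclerotome. Dcn and Lum encode small proteoglycans that bind collagen fibrils. Dcn was at 1.04 and 59.3 UPM, and Lum at 49.8 and 200. Fn1, the fibronectin gene, was at 95.5 and 179 UPM and did not pass 2-fold. Fbn2, the fibrillin of embryonic microfibrils, was at 343 and 236 UPM and made up 95.5% and 89.0% of the fibrillin UMIs. Eln, the elastin gene, was at 0.115 and 6.49 UPM.

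In the progenitors 27 genes passed the floor, 12 were higher at E11.5 and 1 lower, against 10.8% and 5.74% of all genes (16.5% in either direction). The lower gene was Lama5, at 12.7 and 4.22 UPM. Col1a1 stood at 9.92 and 192 UPM, Col3a1 at 25.9 and 550, Postn, a collagen-binding protein of connective tissue, at 0.713 and 177, and Lum at 1.23 and 63.3. A UMI of Pdgfra, Prrx1 or Twist2 was also found at E9.5, in 64.2% of the progenitors and 69.0% of the Myf5 cells. After thinning the E9.5 shares were 31.6% in progenitors and 32.3% in Myf5 cells, against 54.2% and 19.9% at E11.5. The thinned share of cells with such a UMI was thus higher at E11.5 in progenitors and lower in Myf5 cells, and its part in these ratios was not tested. With Myf5 cells in place of progenitors 10 genes were higher and 1 lower, beside 7.27% and 4.33% of all genes, and 8 calls were shared. In that comparison Col3a1 stood at 38.1 and 227 UPM with a log2 ratio of 2.57, while Col1a2, at 92.0 and 134 UPM, dropped under 2-fold with 0.55.

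In the Sox9-high mesenchyme 30 genes passed the floor, 18 were higher at E11.5 and none lower, against 11.4% and 3.27% of all genes (14.6% in either direction). Col2a1 stood at 114 and 1330 UPM, Col9a1 at 105 and 639 and Col11a1 at 35.6 and 255. The E9.5 group of 57 cells limits these ratios.

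Endothelial cells had 10 genes higher and 1 lower of 21 over the floor, where 6.79% and 2.89% of all genes were (9.68% in either direction). The E11.5 group held 78 cells and the E9.5 group 330. The lower gene was Lama1, at 12.9 and 1.33 UPM. Col4a1 stood at 300 UPM (286 to 315) in the E9.5 cells and 826 (781 to 873) in the E11.5 cells, Col4a2 at 166 and 464, and Col18a1, whose product lies in vessel basement membranes, at 240 and 494. Lama4, the laminin alpha chain typical of vessels, was at 28.7 and 151 UPM and Lamc1 at 28.1 and 100. Hspg2, the perlecan gene, was at 163 and 330 UPM. Col1a2 and Col3a1 were also called higher, but their E11.5 levels of 35.4 and 60.7 UPM lay under those of the red cells.

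In neural progenitors 11 genes were higher and 2 lower of 25 over the floor, against 13.8% and 6.62% of all genes (20.4% in either direction), and the E11.5 group held 92 cells. This split was not stable: it was 11 higher and 4 lower with globin, mitochondrial and ribosomal protein genes left out of the total, 7 and 5 without the cells of highest doublet score (9 calls shared), 5 and 3 under stricter bounds and 4 and 3 after thinning. The E11.5 levels of Col1a2 (20.7 UPM), Col3a1 (36.0), Col5a1 (20.7) and Col26a1 (14.2), all called higher, lay under those of the red cells. Agrn, a basement membrane proteoglycan that also organises neuromuscular synapses, stood at 22.8 and 78.6 UPM, and Vcan, a large hyaluronan-binding proteoglycan, at 98.3 and 21.8. Dcn was at 0.372 and 221 UPM, but its 203 UMIs at E11.5 came from 4 of the 92 cells. In neurons 3 genes were higher and 7 lower of 13, against 20.6% and 9.64% of all genes (30.2% in either direction). The balance towards lower changed with the settings, to 9 higher and 8 lower at a floor of 20 UMIs, 2 and 2 after thinning and 1 and 1 at a floor of 200 UMIs. Agrn was among the higher ones, at 35.6 and 75.1 UPM, and Fbn2, at 51.2 and 8.02, among the lower.

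**Figure D2:**
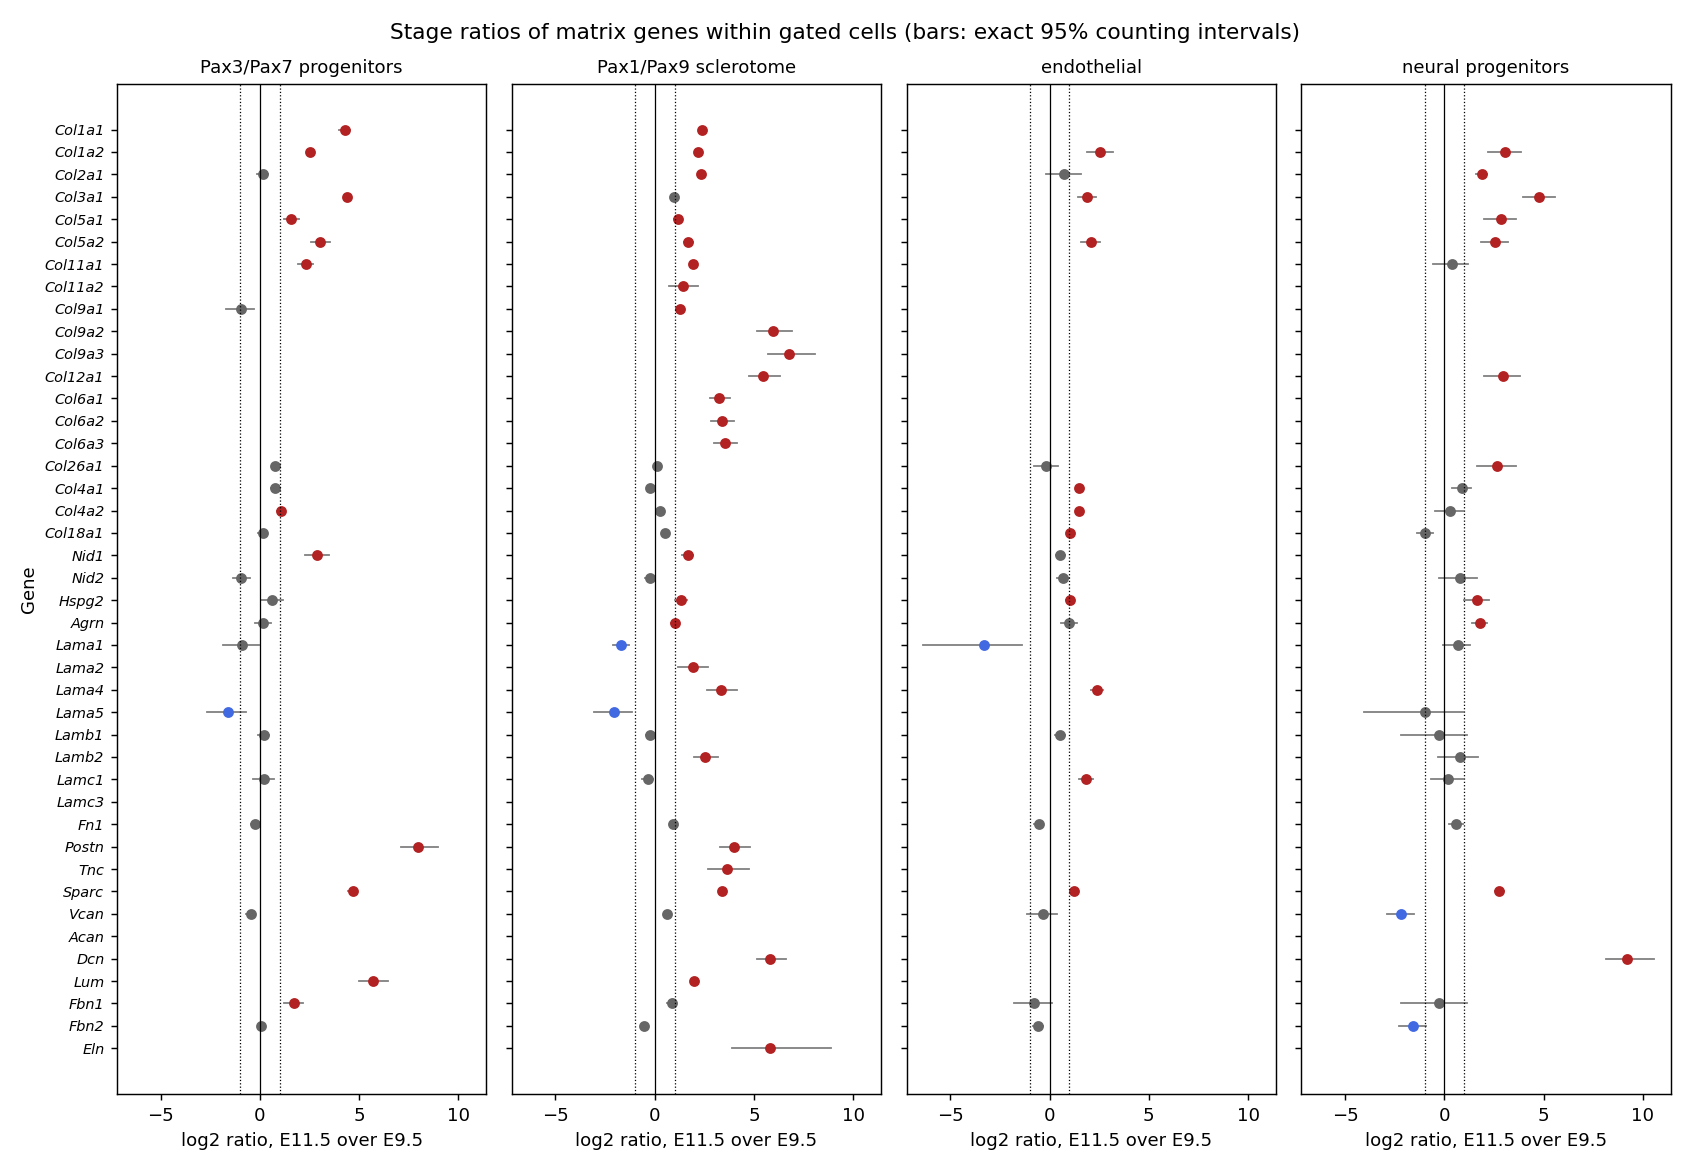
Log2 ratio of E11.5 over E9.5 (horizontal axis) for each matrix gene over the floor of 50 UMIs (vertical axis) in 4 groups of cells, with exact 95% counting intervals, red for higher, blue for lower and grey for genes within 2-fold. Most points in sclerotome lie right of 0, with Lama1 at -1.69 and Lama5 at -2.06 left of it.

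Sparc was called higher at E11.5 in each of the 6 groups compared between the stages. Its log2 ratios were 4.67 in progenitors, 3.37 in sclerotome, 2.93 in Sox9-high mesenchyme, 1.22 in endothelial cells, 2.76 in neural progenitors and 1.47 in neurons. At E9.5 the levels ran from 14.9 UPM in neurons to 482 in endothelial cells, and at E11.5 from 41.2 to 1120 in the same groups. In the other E11.5 groups Sparc lay between 226 UPM in neural progenitors and 383 in Sox9-high mesenchyme. The E11.5 level in neurons was below the 103 UPM of the red cells.

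To ask which cells carry which matrix genes, groups were set against the sclerotome within E11.5. In the Sox9-high mesenchyme, 7 of 40 genes over the floor were higher and 6 lower, against 1.75% and 2.69% of all genes (4.43% in either direction). The sclerotome set against it held no cell that fits the Sox9-high rule. The 7 were Col2a1, Col11a1, Col11a2, Col9a1, Col9a2, Col9a3 and Acan, all known from cartilage. Col2a1 stood at 1330 UPM (1288 to 1372) against 425, Col11a1 at 255 against 106, and Col11a2 at 23.2 against 3.87. Acan, the aggrecan gene, stood at 21.9 UPM (16.9 to 27.9) against 3.48 and had no UMI in any muscle group, with upper interval bounds from 0.770 to 1.56 UPM.

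Collagen IX genes were at 639, 163 and 245 UPM for Col9a1, Col9a2 and Col9a3 in the Sox9-high mesenchyme, with log2 ratios over the sclerotome of 1.68, 1.93 and 2.47. In contrast, Col5a2, Col6a1, Col6a2, Col6a3, Lama4 and Dcn were lower there. Collagen VI was at 7.74, 6.05 and 7.06 UPM for its 3 chains, against 22.1, 18.2 and 20.3 in the sclerotome. Vcan stood at 586 UPM against 329 and did not pass 2-fold. Stricter bounds on the Sox9-high group removed 70.6% of its cells and left 11 of these 13 calls.

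**Figure D3:**
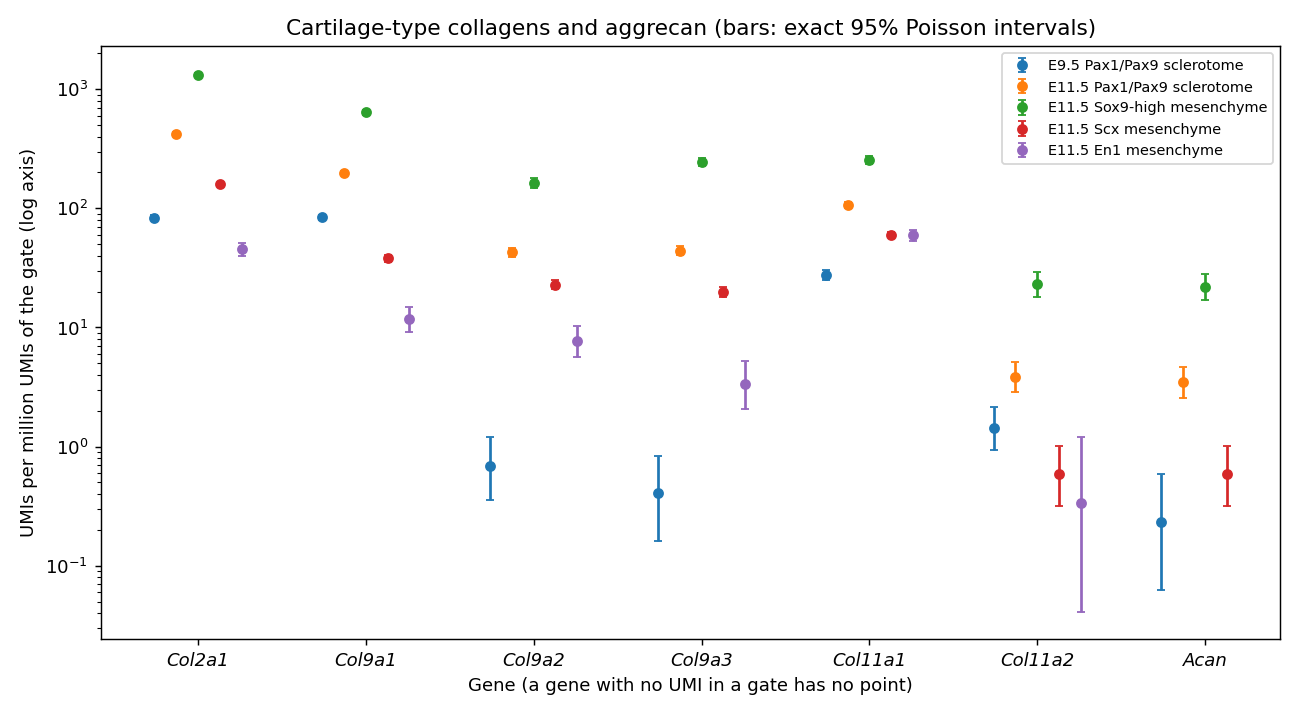
Levels (UPM, log axis) of cartilage-type collagens and aggrecan in the sclerotome of both stages and in 3 mesenchymal groups of E11.5, with exact 95% Poisson intervals. Col9a1 was at 84.0 UPM in the E9.5 sclerotome while Col9a2 and Col9a3 were under 1 UPM, and every gene shown was highest in Sox9-high mesenchyme.

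The Scx mesenchyme differed from the sclerotome in fewer genes, with 3 of 41 higher and 8 lower, against 2.51% and 2.5% of all genes (5.02% in either direction). Tnc, the tenascin C gene known from tendon and its attachments, stood at 62.4 UPM (59.1 to 65.8) against 7.19. Tnc and Fn1, the latter at 236 UPM against 179, were highest here among the 12 groups of E11.5, with intervals apart from the next group. Postn stood at 66.5 UPM against 16.6 and Lama5 at 2.95 against 0.928. Lower genes included Col2a1 at 159 UPM, Col9a1 at 38.0 and Lum at 80.6. Col1a1 and Col1a2 did not set these cells apart, at 177 and 318 UPM against 196 and 355.

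The En1 mesenchyme had 4 of 39 genes higher and 10 lower, against 1.57% and 2.97% of all genes (4.53% in either direction). Col1a2 stood at 736 UPM (714 to 758) against 355, Col3a1 at 1090 (1064 to 1117) against 518, Col5a2, which joins type I fibrils, at 97.6 against 44.4, and Postn at 81.8 against 16.6. Cartilage-type genes were low, with Col2a1 at 45.3 UPM, Col9a1 at 11.7 and no Acan UMI in 432 cells (upper interval bound 0.618 UPM). Tnc was at 2.35 UPM, so that the Scx and En1 groups were both higher in Postn than the sclerotome and differed in Tnc. Postn was higher still in progenitors (177 UPM) and Myod1 myoblasts (118 UPM). The calls for Col1a2 and Col3a1, at log2 ratios of 1.05 and 1.08, lay just over the threshold. The En1 rule asked for mesenchymal UMIs and that of the sclerotome did not, and the part of this in the ratios was not tested.

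Between endothelial cells and the sclerotome, basement membrane genes and fibrillar collagens went opposite ways, while laminins and glycoproteins were mixed. Of 39 genes 10 were higher in endothelium and 24 lower, against 11.1% and 16.5% of all genes (27.5% in either direction). Of the 7 basement membrane collagens and linkers 6 were higher, with Col4a1 at 826 UPM against 75.6, Hspg2 at 330 against 23.3, Nid1 at 173 against 29.7 and Nid2 at 92.8 against 20.8. Lama4, Lamb1 and Lamc1, which together can form a laminin of vessels, were at 151, 143 and 100 UPM against 9.97, 35.6 and 14.2. Of the fibrillar collagens 6 of 8 were lower, and the 8 genes grouped as fibril-associated and beaded-filament collagens were all lower. Sparc, at 1120 UPM, was the remaining higher gene. Of the 6 laminin genes over the floor 2 were lower in endothelium, as were 2 of the 4 glycoprotein genes. Summed, the 7 basement membrane collagens and linkers held 2435 UPM in endothelium and 299 in the sclerotome. The endothelial values of E11.5 rest on 78 cells. These held 1498554 UMIs against 12934396 in the sclerotome, so genes could pass the floor through the sclerotome alone. The split of calls is therefore a description only.

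Neural progenitors had 3 of 39 genes higher than the sclerotome and 24 lower, against 7.78% and 11.7% of all genes (19.5% in either direction). The 3 were Agrn at 78.6 UPM against 33.6, Lama1 at 22.9 against 5.41, and Dcn, whose UMIs lay in 4 cells and whose ratio turned to -2.90 on the log2 scale under stricter bounds. Col2a1 was at 129 UPM in neural progenitors, against 12.7 UPM in neurons and 61.7 in red cells. The rule for neural progenitors limited Twist1 and Pdgfra UMIs, and its part in the 24 lower calls was not tested. Neural progenitors held 916600 UMIs against 12934396 in the sclerotome, so genes could pass the floor through the sclerotome alone. The split of calls is therefore a description only.

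Progenitors were compared with the sclerotome at each stage. At E9.5, 10 of 27 genes were higher in the sclerotome and 1 lower, against 2.31% and 2.43% of all genes (4.75% in either direction). Lum stood at 49.8 UPM in sclerotome against 1.23, Col3a1 at 261 against 25.9 and Col9a1 at 84.0 against 15.6, while Lama5 was the lower gene, at 3.87 against 12.7. Col1a2 did not differ by 2-fold, at 78.7 against 66.8 UPM, although Col1a1 did, at 38.3 against 9.92. The share of Col1a1 in the collagen I UMIs was thus 32.7% in the sclerotome and 12.9% in progenitors at E9.5, and 6.51% in the Myf5 cells of that stage.

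At E11.5, 13 of 39 genes were higher in sclerotome and 3 lower, against 4.96% and 1.97% of all genes (6.93% in either direction). The cartilage-type genes Col2a1, Col9a1, Col9a2, Col9a3, Col11a1 and Col11a2 were among the 13, and Postn, Lama2 and Col4a1 were the 3. With Myf5 cells in place of the progenitors 20 genes were higher and 5 lower, beside 9.63% and 2.70% of all genes in that comparison, and Col1a2 and Col3a1 were then past the threshold, with log2 ratios of 1.40 and 1.19.

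Along the muscle steps of E11.5, 2 of 30 genes were higher in sarcomere myocytes than in progenitors and 18 lower, against 12% and 16.2% of all genes (28.2% in either direction). The median log2 ratio was -1.18 over these genes and -0.23 over all. Fibrillar collagens were lower in 6 of 7 cases and basement membrane collagens and linkers in 5 of 7. From progenitors to sarcomere myocytes, Col3a1 ran through 550, 227, 275, 146 and 89.4 UPM and Col1a1 through 192, 51.1, 73.4, 23.5 and 21.7. The last 2 levels of Col1a1 lay under the 31.9 UPM of the red cells. The share of cells with a UMI of Pdgfra, Prrx1 or Twist2 moved with these levels, at 54.2%, 19.9%, 29.7%, 8.47% and 5.68% of thinned cells over the same steps, and its part in them was not tested. With Myf5 cells as the start, 2 genes were higher and 12 lower, beside 12.8% and 13.1% of all genes, with 11 calls shared, and Col5a2 turned from -1.67 to 0.84.

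The collagen IV genes had a peak within the muscle steps. Col4a1 was at 163 UPM in progenitors, 280 in Myf5 cells, 181 in Myod1 myoblasts, 109 in early myocytes and 48.0 in sarcomere myocytes, and Col4a2 was at 105, 168, 119, 62.7 and 42.2. Both genes had their highest muscle level in Myf5 cells, with Poisson intervals of Col4a1 apart from those of the neighbouring steps. Across the 12 groups of E11.5 the share of Col4a1 among the collagen IV UMIs stayed between 53.2% and 68.3%, while the level of Col4a1 ran from 10.1 UPM in neurons to 826 in endothelium.

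Lama2 and Col12a1 ran the other way. Lama2, the alpha chain of the laminin around muscle fibres, stood at 13.5 UPM in progenitors (9.23 to 19.1), 25.3 in Myf5 cells, 23.5 in Myod1 myoblasts, 24.3 in early myocytes and 46.4 (40.5 to 52.9) in sarcomere myocytes. Lama2 UMIs were found in 49.1% of sarcomere myocytes (22.7% after thinning cells to 5000 UMIs) and in 1.09% of neurons (1.03% after thinning), with median depths of 17077 and 9128 UMIs. The log2 ratio between the ends was 1.78, and 0.87 with Myf5 cells as the start, which is under 2-fold. Col12a1 was at 11.8, 16.3, 14.7, 7.76 and 41.4 UPM over the same steps, so the higher level was seen in the last step only. Sparc at 382 and 336 UPM and Col26a1 at 138 and 151 differed little between the ends.

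**Figure D4:**
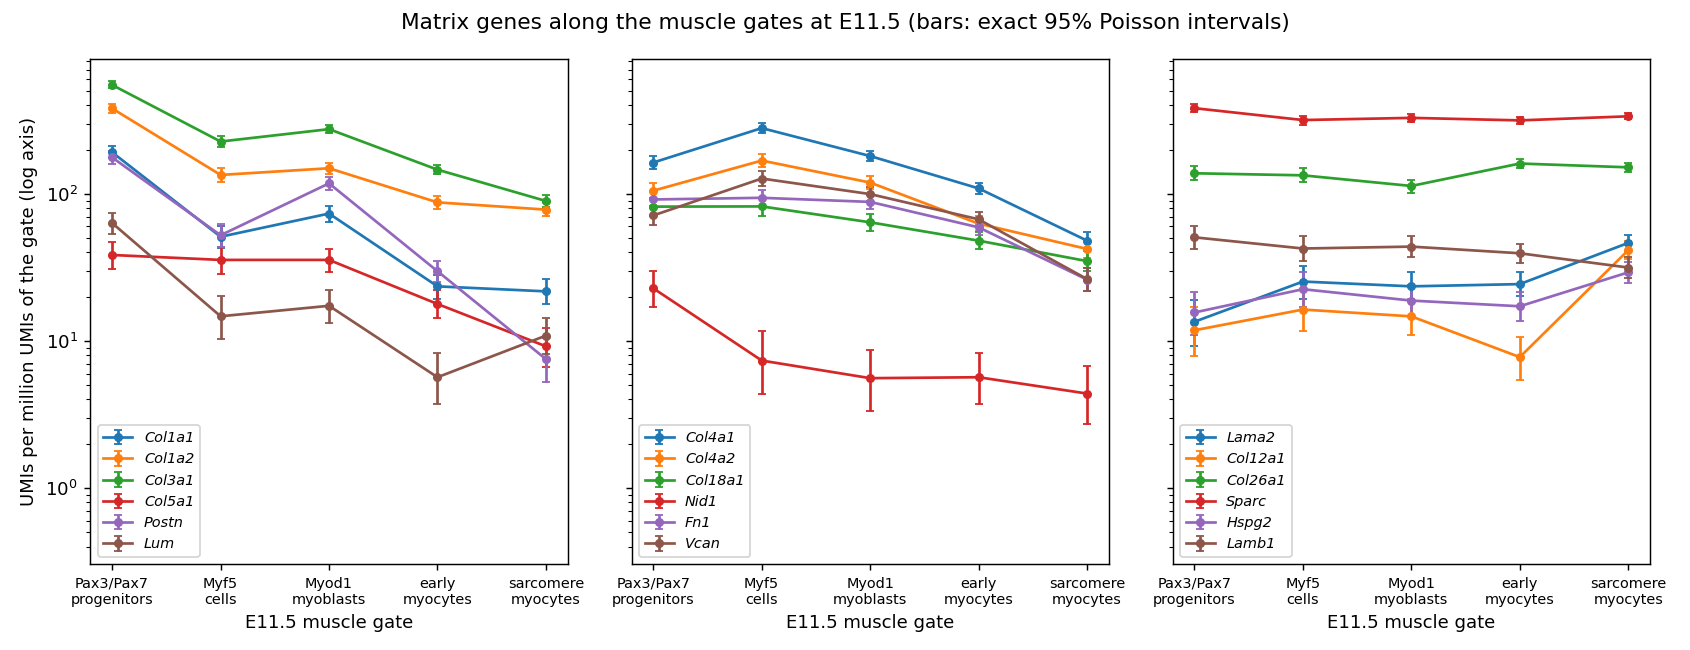
Levels (UPM, log axis) of 18 matrix genes along the 5 muscle groups of E11.5, with exact 95% Poisson intervals. Col3a1 ran from 550 to 89.4 UPM and Postn from 177 to 7.52, Col4a1 peaked at 280 in Myf5 cells, and Lama2 and Col12a1 were highest in sarcomere myocytes.

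The laminin alpha chains were then described as shares of their summed UMIs, compared only between groups of cells. At E9.5, Lama5 held 54.6% and Lama1 40.4% of the alpha chain UMIs in progenitors, and Lama1 held 74.2% in the sclerotome. At E11.5, Lama2 held 35.2% in progenitors, 53.0% in Myf5 cells, 59.3% in Myod1 myoblasts, 69.5% in early myocytes and 92.1% in sarcomere myocytes. The 95% intervals of neighbouring steps overlapped up to the early myocytes (61.9% to 76.3%), and that of the sarcomere myocytes (88.0% to 95.2%) lay apart.

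In endothelial cells Lama4 led, with 64.0% of alpha chain UMIs in the E9.5 cells and 97.4% in the E11.5 cells. Lama4 also held most of them in Scx mesenchyme, with 67.2%, and in En1 mesenchyme, with 54.9%. In the sclerotome of E11.5 it held 47.8% and Lama1 25.9%, while in the Sox9-high mesenchyme Lama1 held 44.0% of only 50 UMIs. In neural progenitors Lama1 held 75.7% and 80.8%, the latter of 26 UMIs. Among beta chains, Lamb1 held 96.1% in the E9.5 sclerotome and 77.8% in the E11.5 sclerotome, and Lamb2 the rest.

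**Figure D5:**
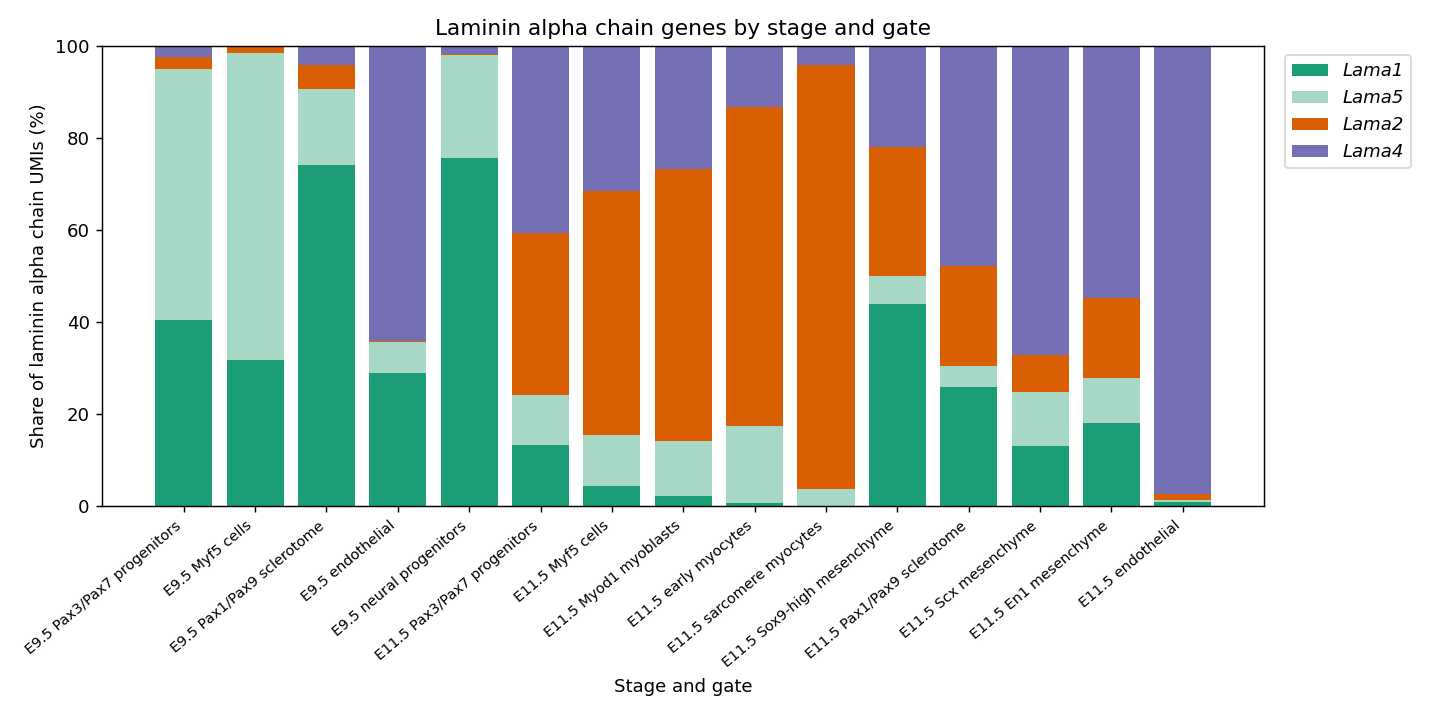
Share of each laminin alpha chain gene (vertical axis, percent of the UMIs of Lama1, Lama2, Lama4 and Lama5) in each group with at least 50 such UMIs. Green shades (Lama1 and Lama5) hold most of the E9.5 bars except endothelium, orange (Lama2) grows to 92.1% along the muscle steps, and purple (Lama4) holds 97.4% of the E11.5 endothelium.

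Nidogens, which join laminin to collagen IV, also differed between groups in the share of each gene. Nid1 held 7.03% of nidogen UMIs in E9.5 progenitors, 27.6% in the sclerotome and 66.9% in endothelium. At E11.5 its share was 58.8% in the sclerotome and 65.1% in endothelium, and 15.2% in sarcomere myocytes. Within collagen V, Col5a2 held 34.9% in the E9.5 sclerotome, 43.8% in the E11.5 sclerotome, 68.6% in En1 mesenchyme and 88.2% of 93 UMIs in E11.5 endothelium.

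Taking each gene by the group with its highest level at E11.5, Sox9-high mesenchyme led for 13 genes, endothelium for 11 and En1 mesenchyme for 7. The interval of the leading group lay apart from that of the next for 9, 10 and 5 of these genes. Neural progenitors and sclerotome led for 3 genes each, Scx mesenchyme for Fn1 and Tnc, sarcomere myocytes for Lama2, early myocytes for Lama5 and progenitors for Postn. Intervals lay apart for 2 of the neural progenitor genes, 1 of the sclerotome genes, Fn1, Tnc, Lama2 and Postn, but not for Lama5. Dcn, led by neural progenitors, rested on few cells. At E9.5 endothelium led for 12 genes, with 10 apart from the next group, and Sox9-high mesenchyme for 18, with 1 apart. Some of these E9.5 leads rested on few UMIs, with 1 UMI of Lamc3, 1 of Col9a2 and 2 of Lama2 in Sox9-high mesenchyme and Eln at 0.185 UPM in endothelium. The share of all genes led by each group was not computed, so the counts at both stages are a description only.

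Genes that make, process and accompany the matrix were taken from lists of other genes. In the sclerotome, 3 of 16 collagen modification and folding genes over the floor were higher at E11.5 and 1 lower, 4 of 7 procollagen processing and cross-linking genes were higher, and 6 of 11 matrix proteases and inhibitors were higher. Over all genes 16% were higher and 3.9% lower, so the share of the first list was near that of all genes. The median log2 ratios of the 3 lists were 0.40, 1.56 and 1.13, beside 0.20 over all genes. The hyaluronan list went the other way, with 4 of 6 lower and none higher (median log2 ratio -1.85), among them Has2, a hyaluronan synthase, at 62.8 and 14.5 UPM, and Hapln3, a link protein, at 29.1 and 2.86. Of 18 further matrix genes 12 were higher and 1 lower, with Col14a1, a fibril-associated collagen, at 0.693 and 46.8 UPM and Smoc2 at 0.404 and 39.7.

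Between progenitors and sarcomere myocytes of E11.5, 6 of 7 proteases and inhibitors were lower and none was higher, and 4 of 12 further matrix genes were higher and 6 lower, beside 12% higher and 16.2% lower of all genes. The higher ones included Npnt, the gene of the integrin ligand nephronectin, at 6.75 UPM in progenitors and 228 in sarcomere myocytes, and Col22a1, a collagen of muscle attachments, at 0.422 and 16.5. These list values are given for the progenitors alone, whose mesenchymal UMIs were described above, and not with Myf5 cells as the start. In endothelium, Col15a1, a basement membrane collagen, stood at 159 UPM at E11.5 against 0.232 in the sclerotome and 16.8 in E9.5 endothelium, and Thbs1 at 166 UPM against 0.555 in E9.5 endothelium.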

How the data were processed

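Single cells of pooled somites of 3 embryos were sequenced as 1 library per stage on the 10x Chromium platform. The submitters' processing notes name Cell Ranger 3.0.1 and the mouse build mm10. The deposited values are raw UMI counts per gene and barcode, without normalization, and were checked to be whole numbers. The members, gene lists and rules for cell groups were chosen with earlier results of these data known. Cells with at least 200 and under 6500 genes and under 15% mitochondrial UMIs were kept. Cells that fit the Sox9-high rule were not counted as sclerotome. Cells with at least 5% globin UMIs and cells that then still fitted several groups (133 at E9.5, 711 at E11.5) were left out, and 30 barcodes occurred in both libraries.

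UMIs were summed over the cells of a group. Intervals were exact Poisson for levels, exact for ratios of Poisson counts and Clopper-Pearson for shares, at 95%, and cover counting error only. With 0 UMIs in 1 group the ratio was computed against 3 UMIs. Cells are not replicates, so no test was run. All 42 members could be named, and of the listed other genes only the 3 highest and 3 lowest past 2-fold per comparison. Genes that describe a cell group were set with the groups. The doublet score of Scrublet in scanpy 1.11.5 (Python 3.11.15) had an automatic threshold that called 587 barcodes at E9.5 and 0 at E11.5, so doublets stayed in the main values and the 8% with the highest score were left out in an alternative. Other alternatives were thinning to 5000 UMIs, at least 1000 genes per cell, stricter groups, first group for cells in several, another total, the mean over cells and floors of 20 and 200 UMIs. Doublet removal by score rank, Myf5 cells as progenitors, progenitors or neural progenitors without UMIs of other tissues, and red cells at 20% globin (no E9.5 cell reached 50%) were added after seeing the data. The ratios were tested on simulated Poisson counts for the stage comparison of the sclerotome with 11253 genes, where 95.9% of intervals held the true ratio. The simulation drew only the counting error that the intervals assume, so it checks the calculation and not the spread between cells or libraries. Gene positions are GENCODE M21 on GRCm38. Computations used numpy 2.4.6, scipy 1.17.1 and pandas 2.3.3, plots matplotlib 3.10.9.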

Additional observations from a re-analysis of the deposited data

Results flagged for a closer look

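Members whose stage ratio passed 2-fold upwards in some groups and downwards in others were picked out, and whether the groups differ was not tested. Col1a2 had log2 ratios of E11.5 over E9.5 of 2.51 in progenitors, 2.17 in sclerotome, 1.15 in Sox9-high mesenchyme, 2.53 in endothelial cells and 3.05 in neural progenitors, and -1.62 in neurons. Its E11.5 levels of 35.4 UPM in endothelial cells, 20.7 in neural progenitors (19 UMIs) and 6.73 in neurons lay under the 63.8 UPM of red cells and are not read as transcription by these cells. Col4a2 had 1.07 in progenitors, 1.49 in endothelial cells and -1.65 in neurons. Col18a1 had 1.04 in endothelial cells and -2.48 in neurons. Vcan had 1.28 in Sox9-high mesenchyme, -2.17 in neural progenitors and -1.36 in neurons.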

How the results depend on the processing

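No paired analysis was possible because each stage has 1 library. Of the recomputed summary values, nearly all of them counts of members past 2-fold, 128 stayed within 1.5 times the reported value and 14 did not. Among the laminin alpha chain shares, that of Lama2 in sarcomere myocytes lay between 92.1% and 94.9%. Of the recomputed values of single genes, 1984 kept to their error, 256 moved beyond it and 4 took the opposite sign, 2 of them only as bounds. The 1984 are no measure of stability alone, since floors of 20 and 200 UMIs cannot change the ratio of a gene and each adds 239 of them. The filter of at least 1000 genes per cell adds 239 more, and it left 1057 of 1059 E11.5 and 1286 of 1288 E9.5 sclerotome cells. With cells thinned to 5000 UMIs, the counts became 7 for neural progenitors between stages, 4 for neurons and 13 for the muscle steps. Under stricter groups they became 8 for neural progenitors and 5 for neurons. With a floor of 200 UMIs they became 10 for Sox9-high mesenchyme, 7 for endothelium, 6 for neural progenitors and 2 for neurons between stages, 13 for the muscle steps and 6 for Scx mesenchyme. With a floor of 20 UMIs they became 22 for progenitors and 17 for neurons. With Myf5 cells as progenitors the sclerotome comparison at E11.5 gave 25. The log2 ratio of Col5a2 along the muscle steps turned to 0.84 with Myf5 cells as the start. Dcn in neural progenitors against sclerotome turned to -2.90 under stricter groups. Lama2 and Eln had no UMI in thinned endothelium, so their values of 1.29 and 0.035 against sclerotome, computed from 3 UMIs, are upper bounds and show no change of direction. A floor of 200 UMIs and thinning admit fewer genes, and a floor of 20 UMIs admits more. The cause of the other changes was not tested. In neurons the total without globin, mitochondrial and ribosomal protein genes shifted the median of all genes by -0.11. Not run, with under 50 cells in a group, were both stages of Scx and En1 mesenchyme, stricter Sox9-high mesenchyme between stages, and E11.5 progenitors without mesenchymal UMIs (49 cells).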
